A study of Mus musculus with 18 samples.

Results

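The Hox genes of clusters a, b, c and d were read out in NIH 3T3 cells, a line of mouse embryonic fibroblasts, on substrates of defined rigidity. Every row of the deposited gene table was taken whose symbol is Hoxa, Hoxb, Hoxc or Hoxd and a number and nothing else. That gave 39 genes of 22019: 11 in the Hoxa cluster, 10 in Hoxb, 9 in Hoxc and 9 in Hoxd. The choice used symbols alone and no measured value. Polyadenylated RNA was sequenced in 18 libraries, which are called here by the serial numbers of the laboratory.

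The cells of all groups carried a retroviral transgene under a doxycycline-inducible promoter. Those of every library were kept 48 hr with 1 μg/ml doxycycline on polyacrylamide gels coated with fibronectin. SUN1L is the lumenal part of the nuclear envelope protein SUN1 with an endoplasmic reticulum retention signal, which acts as a dominant negative on the LINC complex that couples the nucleus to the cytoskeleton. KDEL is a GFP with the same retention signal and served as the control. KDEL cells on 1 kPa were libraries 4, 16 and 28, KDEL cells on 308 kPa were libraries 8, 20 and 32, SUN1L cells on 1 kPa were libraries 3, 15 and 27, and SUN1L cells on 308 kPa were libraries 7, 19 and 31. KDEL cells on 308 kPa were also treated with 25 μM Y27, a kinase inhibitor that lowers actomyosin contractility (libraries 12, 24 and 36), or with 10 μM blebbistatin, an inhibitor of non-muscle myosin II (libraries 10 and 22). Each construct was present in 1 stable line, and the KDEL line was further enriched by sorting for GFP, so the construct and the line cannot be told apart. The labels of library 34 contradict each other, naming an empty vector, Y27 and blebbistatin, and it was put in no group. No column of the deposited table carries the number in its title. Its values were read from the column with the next higher number, whose header equals its source name and that of no other sample.

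Hox genes encode homeodomain transcription factors that specify position along the body axis, and their order on the chromosome follows the order of their expression domains in the embryo. Low-numbered genes at the 3′ end of a cluster act towards the head and high-numbered genes at the 5′ end towards the tail and the tips of the limbs, while genes of the same number in different clusters are paralogues. Cultured fibroblasts keep a Hox pattern of their site of origin, held open by trithorax-group proteins and kept silent by Polycomb-group proteins. No fibroblasts from another body site were measured here, so the pattern of these cells was described and not assigned to a site.

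The signal of a gene is a normalized linear value of the deposited table, in which 1 is the lowest value. By the spacing of low values, 1 read pair was worth between 1.70 and 2.48 signal units and the libraries held an estimated 12666800 to 19506600 read pairs, so that a Hox gene with a signal under 5 rested on very few read pairs. The gene that the transgene derives from, Sun1, was between 38452 and 82617 in the 6 SUN1L libraries and between 2785 and 3799 in the other 12. Of 12 fibroblast markers 11 were above 1 in all 18 libraries, Lum being the exception with 8. The summed signal of 5 neural markers was at most 17.1 in the libraries assigned to a group. Among these markers Gfap was above 1 in all 18 libraries (1.31 to 12.3). Other marker lists were read in part: above 1 in all 18 libraries were 2 of 7 epithelial markers (Cdh1, 88.0 to 311, and Krt14, 32.04 to 872), 2 of 6 immune markers (Cd68, 58.7 to 304, and Cd14, 80.5 to 401), 1 of 5 muscle markers (Des, 181 to 465) and 3 of 5 endothelial markers (Pecam1, Cdh5 and Tek). Krt18, Cd3e and Myod1 of these lists were at 1 in all 18, and Epcam was above 1 in 1. Libraries 3, 7 and 8 stood apart with a mean log2 level of 10 G2/M genes of 8.75, 8.93 and 9.33, against 11.6 to 12.4 in the other 15. In such bulk samples fewer cells with a Hox transcript and less transcript per cell cannot be told apart.

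Transcripts came mostly from the 3′ and middle parts of the clusters, and the 5′ ends were at or near the lowest value. Hoxb1 and Hoxd1, at the 3′ ends of their clusters, were also at or near it. In all 18 libraries 22 of the 39 Hox genes were above 1, compared with 57.4% of all genes in the table. Among them were Hoxa2 to Hoxa7, Hoxa9 and Hoxa10, then Hoxb2 to Hoxb6 and Hoxb8, Hoxc4 to Hoxc6, and Hoxd3, Hoxd4, Hoxd8 and Hoxd9. At the other extreme Hoxa13, Hoxb13, Hoxc9, Hoxc12, Hoxd11, Hoxd12 and Hoxd13 were listed at 1 in all 18 libraries, as were 20.5% of all genes. Hoxa11, Hoxb1, Hoxc10, Hoxc13, Hoxd1 and Hoxd10 were above 1 in only 1 or 2 libraries, with 3.52 as the highest value among them, reached by Hoxd1 in library 12. In between lay Hoxb7 with 10 libraries above 1, Hoxc11 with 9, Hoxb9 with 7 and Hoxc8 with 5, and none of these 4 exceeded 8.31 anywhere.

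**Figure D1:**
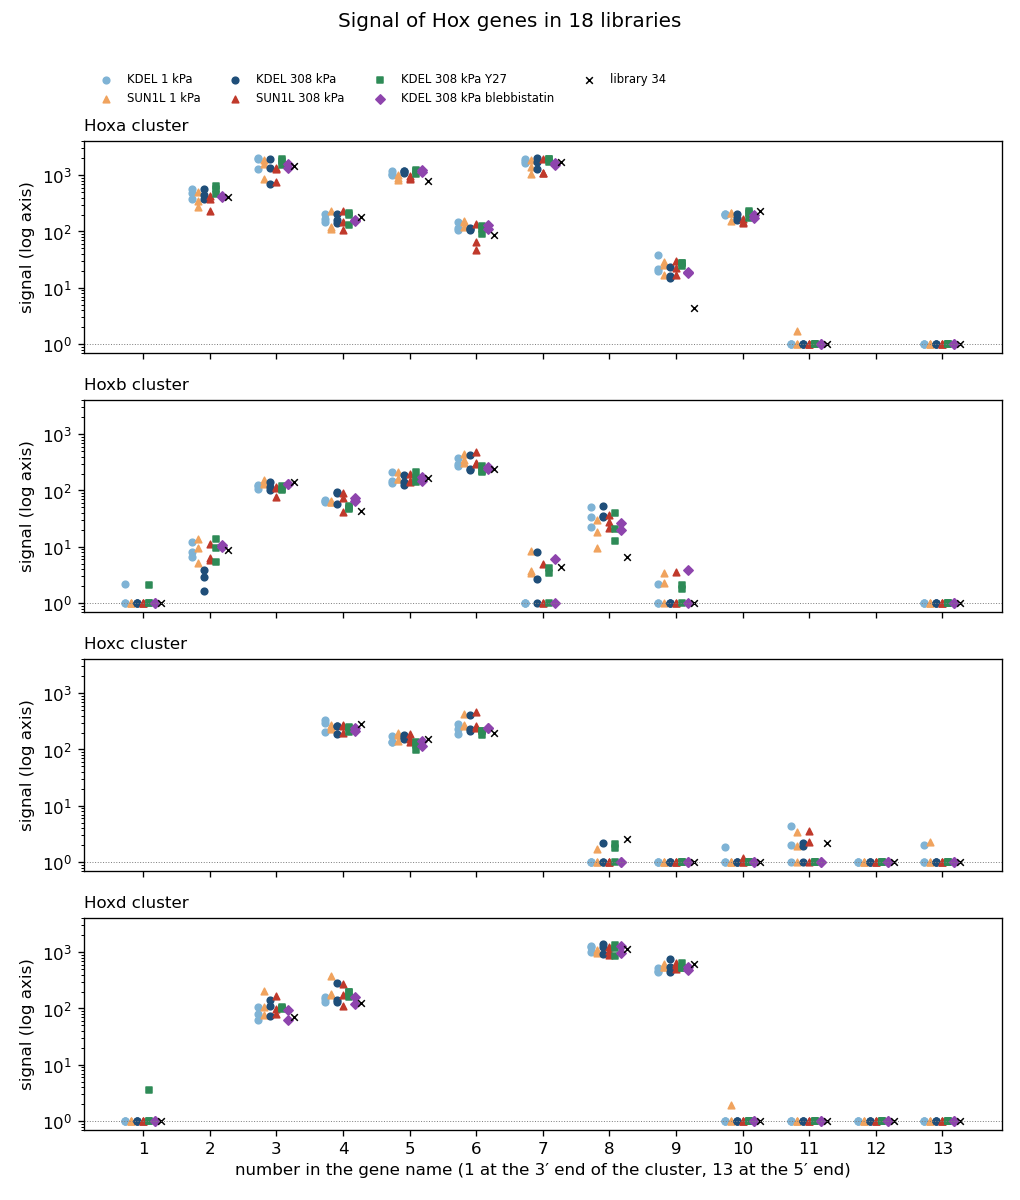
Signal of Hox genes (vertical axis, logarithmic, lowest value 1) against the number in the gene name, one panel per cluster, with 1 point per library coloured by group. Hoxa genes were read up to Hoxa10 and Hoxd genes up to Hoxd9, and the 13th paralogues lay at 1 in every library except 2 values of Hoxc13.

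The set was the same with both constructs. The same 22 Hox genes were above 1 in all 6 KDEL libraries and in all 6 SUN1L libraries of the untreated cells, and 0 genes were in 1 of these sets alone. At a stricter level of 10 the KDEL libraries had 21 and the SUN1L libraries 20, and the gene they differed by was Hoxb8, which was 9.74 in library 27 of SUN1L cells. SUN1L cells on 1 kPa had 23 Hox genes above 1 in all libraries, Hoxb7 being the additional gene, and the other 5 groups had 22 each.

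The edge of transcription in the Hoxa and Hoxd clusters fell between neighbouring genes. Hoxa10 had a signal between 139 and 229.7, while Hoxa11, whose start lies 4956 bases further upstream on chromosome 6, was above 1 in 1 library (1.75 in library 3). Hoxd9 was between 443 and 739, while Hoxd10, whose start lies 5872 bases upstream on chromosome 2, was above 1 in 1 library (1.95 in library 27). The promoters on both sides of these edges are given here, together with that of Hoxa5, the gene whose SUN1L and KDEL libraries separated. RefSeq starts of build GRCm38.p6 were matched for 22 of the 39 Hox genes, and for these 5 genes they lay within 36 bases of the start in the deposited table. The sequences come from RefSeq, and the 250 bases before the start are printed 5′ to 3′ on the strand of the gene, with each CG dinucleotide, the site of DNA methylation and of CpG island chromatin, in capitals.
Hoxa5, chr6:52204588-52204837, minus strand: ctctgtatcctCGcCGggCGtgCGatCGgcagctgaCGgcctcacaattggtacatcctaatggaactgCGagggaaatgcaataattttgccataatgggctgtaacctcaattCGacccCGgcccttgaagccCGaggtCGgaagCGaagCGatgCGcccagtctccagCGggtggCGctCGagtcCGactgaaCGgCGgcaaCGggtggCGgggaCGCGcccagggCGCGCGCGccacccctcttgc
Hoxa10, chr6:52240855-52241104, minus strand: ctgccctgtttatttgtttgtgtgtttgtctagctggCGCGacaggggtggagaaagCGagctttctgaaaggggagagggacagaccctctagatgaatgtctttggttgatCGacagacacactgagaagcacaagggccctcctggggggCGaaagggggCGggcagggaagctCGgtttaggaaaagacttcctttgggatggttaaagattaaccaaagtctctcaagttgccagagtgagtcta
Hoxa11, chr6:52245811-52246060, minus strand: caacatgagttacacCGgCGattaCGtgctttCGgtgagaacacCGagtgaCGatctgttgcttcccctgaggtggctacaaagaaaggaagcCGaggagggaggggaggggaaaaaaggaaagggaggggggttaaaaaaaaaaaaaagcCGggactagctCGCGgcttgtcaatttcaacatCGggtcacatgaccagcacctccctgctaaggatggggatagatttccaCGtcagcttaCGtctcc
Hoxd9, chr2:74697513-74697762, plus strand: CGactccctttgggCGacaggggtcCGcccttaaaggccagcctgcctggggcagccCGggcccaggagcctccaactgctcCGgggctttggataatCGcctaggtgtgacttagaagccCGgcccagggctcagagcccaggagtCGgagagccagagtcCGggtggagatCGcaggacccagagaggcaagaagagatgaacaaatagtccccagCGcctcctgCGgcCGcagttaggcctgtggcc
Hoxd10, chr2:74691641-74691890, plus strand: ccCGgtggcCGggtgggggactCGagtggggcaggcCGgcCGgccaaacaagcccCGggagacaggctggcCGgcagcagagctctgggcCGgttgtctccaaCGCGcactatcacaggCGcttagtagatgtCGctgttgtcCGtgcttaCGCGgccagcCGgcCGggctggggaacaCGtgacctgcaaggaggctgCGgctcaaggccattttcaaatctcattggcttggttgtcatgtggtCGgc
All 5 windows held CG dinucleotides on both sides of the edges. Hoxa10 had 7 at this start (and 20 at another RefSeq start) and Hoxa11 13, Hoxd9 had 13 and Hoxd10 20, and Hoxa5 had 28, against a median of 6 over 32851 promoters of the same length. Among the Hox genes with a promoter, the 14 above 1 in all libraries had between 3 and 28 CG (median 10) and the 8 above 1 in fewer than 3 libraries between 2 and 35 (median 16.5), so these ranges overlapped. For genes with more than 1 RefSeq start the one nearest to the start in the table was taken. The letters TGATNNAT, a core that Hox proteins bind together with Pbx cofactors, were searched on both strands and occurred in the windows of Hoxa2, Hoxb1 and Hoxb8, that is in 3 of 22, with 7.68% of all promoters holding them. The letters CCAAT occurred in 13 of 22 on either strand and in 33.8% of all promoters, and TATAAA in 3 of 22 and in 12.4%. A match of letters is a description of the window and not a bound site.

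Levels between genes were compared per kilobase of exon, with exon lengths taken from GENCODE M1. That annotation is on build NCBIM37, while the gene positions of the table were read as GRCm38, so the lengths may differ from the genes counted. For Hoxa2, Hoxb4, Hoxb5 and Hoxb7 the exon length exceeded the whole span of the gene in the table, so their values per kilobase are uncertain. On that scale Hoxa7 (561 per kilobase, mean of 18 libraries) and Hoxa5 (556) led, with high values also for Hoxd8 (405), Hoxd9 (252), Hoxa3 (223), Hoxa2 (181) and Hoxb6 (147). Hoxa7 and Hoxa5 could not be ordered, since their libraries overlapped widely. At the low end of the transcribed genes stood Hoxd3 (17.6), Hoxb4 (15.6), Hoxb8 (10.5), Hoxa9 (6.32) and Hoxb2 (2.46 per kilobase). Hoxa9 was lower than its transcribed neighbours Hoxa7 and Hoxa10 (48.9). No exon length was matched for Hoxd4. Overlapping gene spans limit this order, because the overlapping genes lie on the same strand, so strand could not separate their reads. Hoxa3 spans Hoxa4, Hoxa5 and Hoxa6. Hoxc5 spans Hoxc6, Hoxc8 and Hoxc9 and overlaps part of Hoxc10, and Hoxd3 overlaps Hoxd4. Reads in these stretches may have been divided between the genes.

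The highest mean signal was that of Hoxa7, a trunk-level factor at chr6:52214491-52221854 on GRCm38. Its signal was 1641, 1786 and 1961 in KDEL cells on 1 kPa and 1034, 1392 and 1837 in SUN1L cells, and on 308 kPa it was 1274, 1718 and 1990 in KDEL cells and 1070, 1098 and 1938 in SUN1L cells. With Y27 it was 1691, 1898 and 1901, and with blebbistatin 1480 and 1630. The values of each group overlapped those of the other construct, and in each of the 3 runs of library numbers (3 to 12, 15 to 24 and 27 to 36) the SUN1L library was the lower one at both rigidities.

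Hoxa3, which acts in the pharyngeal arches and their glands, was 1272, 1916 and 1974 in KDEL cells on 1 kPa and 704, 1948 and 1349 on 308 kPa. In SUN1L cells it was 844, 1598 and 1823 on 1 kPa and 750.2, 1348 and 1272 on 308 kPa, with 1487, 1959.6 and 1753 under Y27 and 1360 and 1594 under blebbistatin. The 3 lowest of these values belonged to libraries 3, 7 and 8.

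Hoxd8 was 1215, 998 and 1271 in KDEL cells on 1 kPa, 1379, 931 and 1254 in KDEL cells on 308 kPa, 992, 966 and 1067 in SUN1L cells on 1 kPa, and 1028, 884 and 1249.7 in SUN1L cells on 308 kPa. Y27 cells had 1331, 861 and 1177 and blebbistatin cells 1289 and 954. Its neighbour Hoxd9 was 464, 446 and 516 in KDEL cells on 1 kPa, 739, 443 and 548 on 308 kPa, and 603, 549.6 and 549 and 584, 502 and 631 in SUN1L cells on 1 and 308 kPa, with 528, 513 and 629 under Y27 and 551 and 480.0 under blebbistatin. Both genes spanned little: the highest of the 18 libraries was 1.601 times the lowest for Hoxd8 and 1.67 times for Hoxd9, where the median over the 12642 genes above 1 in all libraries was 1.98 and that over the 22 Hox genes 2.23. The ratios of Hoxa9, Hoxb2 and Hoxb8 were 8.80, 8.64 and 8.15, and single libraries set them in part: without library 34 that of Hoxa9 was 2.57 and that of Hoxb8 5.55, and without library 8 that of Hoxb2 was 4.76. The next ratios, with all libraries, were 3.43 for Hoxd4 and 3.32 for Hoxd3.

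Summed over a cluster, Hoxa transcripts made up most of the Hox signal. The Hoxa sum was 6134 ± 621 in KDEL cells and 5060 ± 1193 in SUN1L cells on 1 kPa, and 5584 ± 996 and 4532 ± 926 on 308 kPa (SD, n = 3 each). The Hoxd sum was 1874 ± 188 and 1956 ± 210.2 on 1 kPa and 2064 ± 484 and 1933 ± 309 on 308 kPa in KDEL and SUN1L cells. The Hoxb sum lay between 609 and 791 and the Hoxc sum between 561 and 753 as group means. The library ranges of both constructs overlapped for the Hoxa and Hoxd sums at both rigidities. Within each run and rigidity the Hoxa sum was lower with SUN1L in 6 of 6 pairs, with 3843 against 5427, 5110.3 against 6392 and 6228 against 6584 on 1 kPa, and 3640 against 4452, 4467 against 6330 and 5488 against 5969 on 308 kPa. The Hoxb sum went the other way and was higher with SUN1L in 6 of 6 pairs. It was 723 against 649, 767 against 673 and 882 against 815 on 1 kPa. On 308 kPa it was 679 against 650, 661 against 603 and 866 against 848. The Hoxc sum was also higher with SUN1L, except for 646 against 761 on 1 kPa in the third run, and the Hoxd sum went in both directions. These sums were given no test.

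Disruption of the LINC complex by SUN1L was compared with KDEL at each rigidity with limma on log2(signal + 1). Of the 39 Hox genes 26 passed the filter of a signal above 1 in at least 3 of 18 libraries and were tested among 16021 genes, and the other 13 were at or near the lowest value. At an adjusted p under 0.05 and at least 2-fold, 0 of 26 were called on 1 kPa, where 0.0874% of all genes were, 0 on 308 kPa (0.0624% of all genes) and 0 over both rigidities (0.181%). At an unadjusted p under 0.05 there were 1, 3 and 2 Hox genes, with 4.54%, 2.53% and 6.8% of all genes at that level. The methods call the libraries of a condition biological replicates, without saying how they were separated, and the p-values measure the spread between them within 1 line per construct. The median log2 fold change of the 26 Hox genes was 0.01 on 1 kPa, -0.14 on 308 kPa and -0.01 over both, and that of all genes -0.01, -0.03 and -0.02. Below 0 were 13 Hox genes on 1 kPa, where 51.7% of all genes were, 15 on 308 kPa (56.6%) and 13 over both (54.6%). Without overlap between the groups, Hoxb3, Hoxb7, Hoxd4 and Hoxd9 were higher with SUN1L on 1 kPa (6.65% of all genes were) and 2 were lower (7.86%), among them Hoxa5. On 308 kPa Hoxb2 alone was higher (1.95%) and Hoxa5 alone lower (2.33%), and over both rigidities 0 were higher (0.443%). A lack of calls does not show equal levels: the 95% interval of the difference over both rigidities lay within 2-fold for 22 of 26 Hox genes (76.9% of all genes) and reached 2-fold for Hoxb2, Hoxb7, Hoxb8 and Hoxb9.

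Hoxa5, a regulator of lung and cervicothoracic patterning at chr6:52201754-52204587, was the only Hox gene in which all 6 SUN1L libraries lay below all 6 KDEL libraries. Its signal was 1013, 1196 and 1039.7 in KDEL cells and 832, 884 and 1011 in SUN1L cells on 1 kPa, and 1198, 1188 and 1104 in KDEL cells and 853, 896 and 965 in SUN1L cells on 308 kPa. The gap was narrow on 1 kPa, where the highest SUN1L library and the lowest KDEL library nearly met, and wide on 308 kPa. Such a separation towards lower values was found in 0.531% of the genes tested. The lowest Hoxa5 signal of all 18 libraries, 778, was that of library 34, which is in no group and had Sun1 at 3656. The log2 fold change was -0.25 on 1 kPa (SE 0.12, adjusted p = 0.930 by limma), -0.36 on 308 kPa (SE 0.12, adjusted p = 1) and -0.31 over both (SE 0.083, unadjusted p = 0.00369, adjusted p = 0.389, 95% interval -0.49 to -0.12). Without libraries 3, 7 and 8 it was -0.25 over both rigidities. The promoter of Hoxa5, printed above, has the highest CG number of the transcribed Hox genes with a RefSeq start.

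Hoxb8, among the 3 smallest p over both rigidities, was 33.7, 50.9 and 22.5 in KDEL cells and 30.3, 18.7 and 9.74 in SUN1L cells on 1 kPa. On 308 kPa it was 54.1, 35.4 and 33.3 against 27.2, 37.3 and 21.4. The groups overlapped at both rigidities, and the log2 fold change over both was -0.70 (SE 0.32, adjusted p = 0.732 by limma).

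When SUN1L and KDEL libraries of the same run and rigidity were set side by side, 5 Hox genes, among them Hoxa2, Hoxa5, Hoxa7 and Hoxd8, were lower with SUN1L in 6 of 6 pairs, where 7.27% of all genes were, and Hoxb6 was higher in 6 of 6 (4.06% of all genes). Hoxa2, a hindbrain and branchial arch gene, was 379, 475 and 570.4 in KDEL cells and 267, 343 and 508 in SUN1L cells on 1 kPa, and 376, 561 and 444 against 232, 375 and 433 on 308 kPa. Hoxb6 was 300.2, 272 and 375 in KDEL cells and 311, 349.9 and 451 in SUN1L cells on 1 kPa, and 236, 233 and 429 against 309, 299.9 and 474 on 308 kPa. With Y27 and with blebbistatin Hoxa2 was 652, 555 and 471 and 428 and 417, and Hoxb6 was 213, 223 and 276 and 256 and 244. The groups of both genes overlapped at both rigidities, and the runs are no more than stretches of library numbers, since the labels name no batch. With a block on these runs, 8 of 26 Hox genes were at an unadjusted p under 0.05 over both rigidities (15.7% of all genes were), among them Hoxa2, Hoxa3, Hoxa5, Hoxa7, Hoxb8 and Hoxd8 lower and Hoxb6 higher, and the smallest adjusted p was 0.112, again for Hoxa5, so that 0 were called. The Hoxa genes among them are neighbours in 1 cluster and Hoxa3 and Hoxa5 overlap, so they are not independent of each other.

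**Figure D2:**
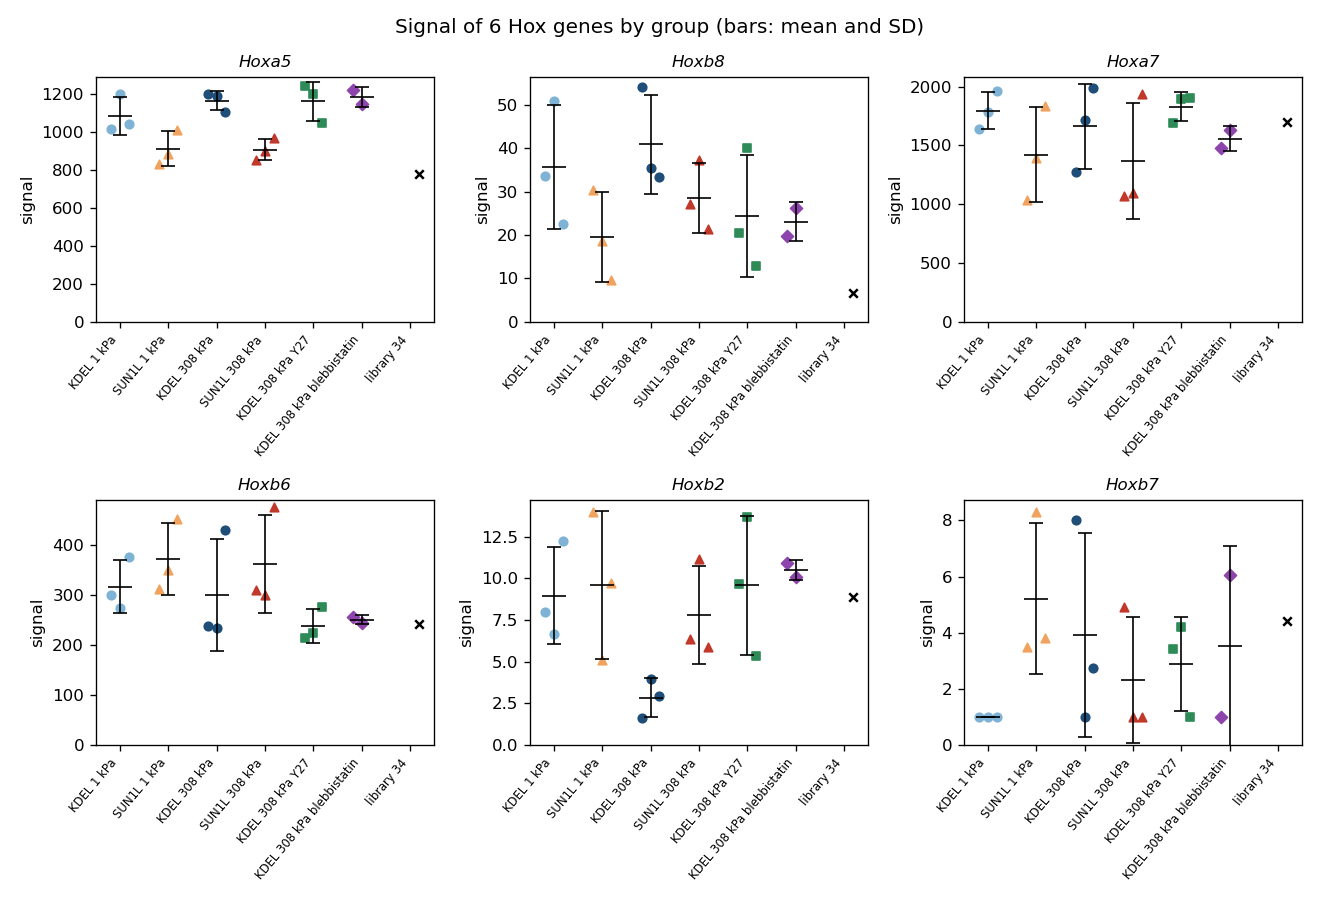
Signal (vertical axis, linear) of Hoxa5, Hoxb8, Hoxa7, Hoxb6, Hoxb2 and Hoxb7 in each library, by group and with runs from left to right within a group, with the mean and SD as black bars (none for library 34). The SUN1L triangles of Hoxa5 lie below the KDEL circles at both rigidities, and no value of Hoxb2 or Hoxb7 exceeds 14.01.

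Of the 26 Hox genes Hoxb7 had the largest log2 fold change on 1 kPa and Hoxb2 on 308 kPa, both at signals near the lowest value, while over both rigidities it was Hoxb8, given above. Hoxb7 was listed at 1 in the 3 KDEL libraries on 1 kPa and was 3.50, 8.31 and 3.82 in the SUN1L libraries, with a log2 fold change of 1.55 (SE 0.57, adjusted p = 0.930 by limma). On 308 kPa it was 8.002, 1 and 2.72 in KDEL and 4.91, 1 and 1 in SUN1L cells, so the groups did not overlap on the soft gel and did on the stiff gel. Hoxb2, a hindbrain gene, was 7.97, 6.64 and 12.2 in KDEL cells and 14.01, 5.11 and 9.74 in SUN1L cells on 1 kPa, and 1.62, 3.93 and 2.94 against 6.35, 11.2 and 5.88 on 308 kPa. It was higher with SUN1L on 308 kPa without overlap, as 1.95% of genes were, with a log2 fold change of 1.20 (SE 0.41, unadjusted p = 0.0141, adjusted p = 1 by limma). The KDEL values of Hoxb2 on 308 kPa correspond to about 1 or 2 read pairs per library.

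Substrate rigidity was compared as 308 against 1 kPa within each construct. Of 26 Hox genes 0 were called in KDEL cells and 0 in SUN1L cells, and 0% of all genes were called in either comparison. At an unadjusted p under 0.05 there was 1 Hox gene in each, with 1.37% and 1.93% of all genes at that level. The median log2 fold change of the Hox genes was -0.05 in KDEL and -0.11 in SUN1L cells, beside -0.01 and -0.01 for all genes, and 14 of 26 were below 0 in KDEL cells and 20 of 26 in SUN1L cells, where 52.3% and 52.4% of all genes were. Towards higher values 0 Hox genes were without overlap in either construct (2.13% and 1.69% of all genes).

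In KDEL cells Hoxb2 was lower on the stiff gel without overlap (2.65% of all genes were), by the values given above, with a log2 fold change of -1.39 (SE 0.41, unadjusted p = 0.00634, adjusted p = 1 by limma). The next genes were Hoxb7 (log2 fold change 1.02, SE 0.57) and Hoxd9 (0.25, SE 0.18), and their groups overlapped. In SUN1L cells Hoxa6, a mid-cluster gene, was 146, 119 and 153 on 1 kPa and 135, 64.2 and 46.5 on 308 kPa, and these groups overlapped. In KDEL cells it was 146, 117 and 104 on 1 kPa and 112, 105 and 114 on 308 kPa. Its log2 fold change in SUN1L cells was -0.90 (SE 0.35, unadjusted p = 0.0256, adjusted p = 1 by limma), and the stiff SUN1L library of the first run, library 7, was the highest of its group.

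Hoxb3, a neighbour of Hoxb2 in the same cluster, was 135, 152 and 130.2 in SUN1L cells on 1 kPa and 111, 116 and 77.6 on 308 kPa, which did not overlap, as in 3.08% of genes towards lower values. In KDEL cells it was 107, 123 and 122 on 1 kPa and 114, 142 and 101 on 308 kPa, which did. Its log2 fold change in SUN1L cells was -0.47 (SE 0.23, adjusted p = 1 by limma). Hoxb7 followed with -1.03 (SE 0.57).

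The interaction of construct and rigidity asks whether the response to rigidity differed between SUN1L and KDEL cells. None of the 26 Hox genes had a Bonferroni-corrected p under 0.05, and 0% of all genes did. At an unadjusted p under 0.05 limma gave 1 Hox gene, Hoxb7, with 0.905% of all genes at that level. Its interaction in limma was -2.05 on the log2 scale (SE 0.81, unadjusted p = 0.0275, Bonferroni-adjusted p = 1), followed by Hoxb2 with 1.16 (SE 0.58) and Hoxa6 with -0.76 (SE 0.49), each with a corrected p of 1. The interaction was below 0 for 15 of 26, where 50.7% of all genes were.

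Inhibition of contractility was compared in KDEL cells on 308 kPa, and both inhibitors share the 3 untreated KDEL libraries. Of 26 Hox genes 0 were called with Y27 and 0 with blebbistatin, and 0% of all genes were called with either. At an unadjusted p under 0.05 there were 3 Hox genes with Y27 (5.8% of all genes) and 1 with blebbistatin (3.04%). The median log2 fold change of the 26 was -0.01 with Y27 and -0.08 with blebbistatin, with 0.01 and 0.00 for all genes. Below 0 were 14 of 26 with Y27 (47.7% of all genes) and 16 of 26 with blebbistatin (48.6%). The 95% interval lay within 2-fold for 18 and 19 of 26 (65.5% and 62.9% of all genes).

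Hoxb2 had the smallest p for both inhibitors. It was 9.68, 13.7 and 5.35 with Y27 and 10.9 and 10.1 with blebbistatin, and 1.62, 3.93 and 2.94 in the untreated libraries. Neither treated group overlapped the untreated one, as in 4.95% of genes towards higher values with Y27 and 7.2% with blebbistatin. The log2 fold change was 1.43 with Y27 (SE 0.37, unadjusted p = 0.00690, adjusted p = 0.793 by limma) and 1.63 with blebbistatin (SE 0.42, unadjusted p = 0.00622, adjusted p = 1). These comparisons and those of Hoxb2 by construct and by rigidity use the same 3 untreated KDEL libraries, which hold the lowest 3 values of the gene among all 18.

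With Y27, Hoxb4 was 48.9, 46.6 and 53.1, below the 93.1, 58.8 and 89.2 of untreated cells, and Hoxc5 was 136, 98.2 and 121, below 180, 153 and 166. Both did so without overlap, as in 3.62% of genes. Their log2 fold changes were -0.66 (SE 0.24) for Hoxb4 and -0.50 (SE 0.20) for Hoxc5, each with an adjusted p of 0.827 by limma. Towards higher values the other gene without overlap was Hoxa9, with 24.05, 27.4 and 27.96 under Y27 against 15.1, 23.6 and 16.6. With blebbistatin Hoxb4 was 73.3 and 66.3 and Hoxc5 was 115 and 143, so that Hoxb4 overlapped the untreated libraries, while Hoxc5 and Hoxb8 lay below them (5.85% of all genes did). Hoxb8 was 19.9 and 26.2 with blebbistatin and 20.4, 40.0 and 12.9 with Y27, against 54.1, 35.4 and 33.3 in untreated cells. Hoxc11 was 2.16, 1.97 and 1 in untreated cells and listed at 1 in all 5 treated libraries, at the level of 1 read pair.

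Hoxa5 was 1239, 1196 and 1044 under Y27 and 1217 and 1143 under blebbistatin, beside 1198, 1188 and 1104 in untreated cells, and these groups overlapped. The summed signal of 5 endothelial markers was between 378 and 729.6 in the untreated libraries, between 1069.5 and 3979.6 with Y27 and between 641 and 1545 with blebbistatin, and its part in the Hox values was not tested. Of that list Tek reached the highest signal (72.3 to 3928 over all libraries) and Kdr was above 1 in 9 of 18. The sum of 7 epithelial markers was 242 to 348 in the untreated libraries and 373 to 1167 with Y27.

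**Figure D3:**
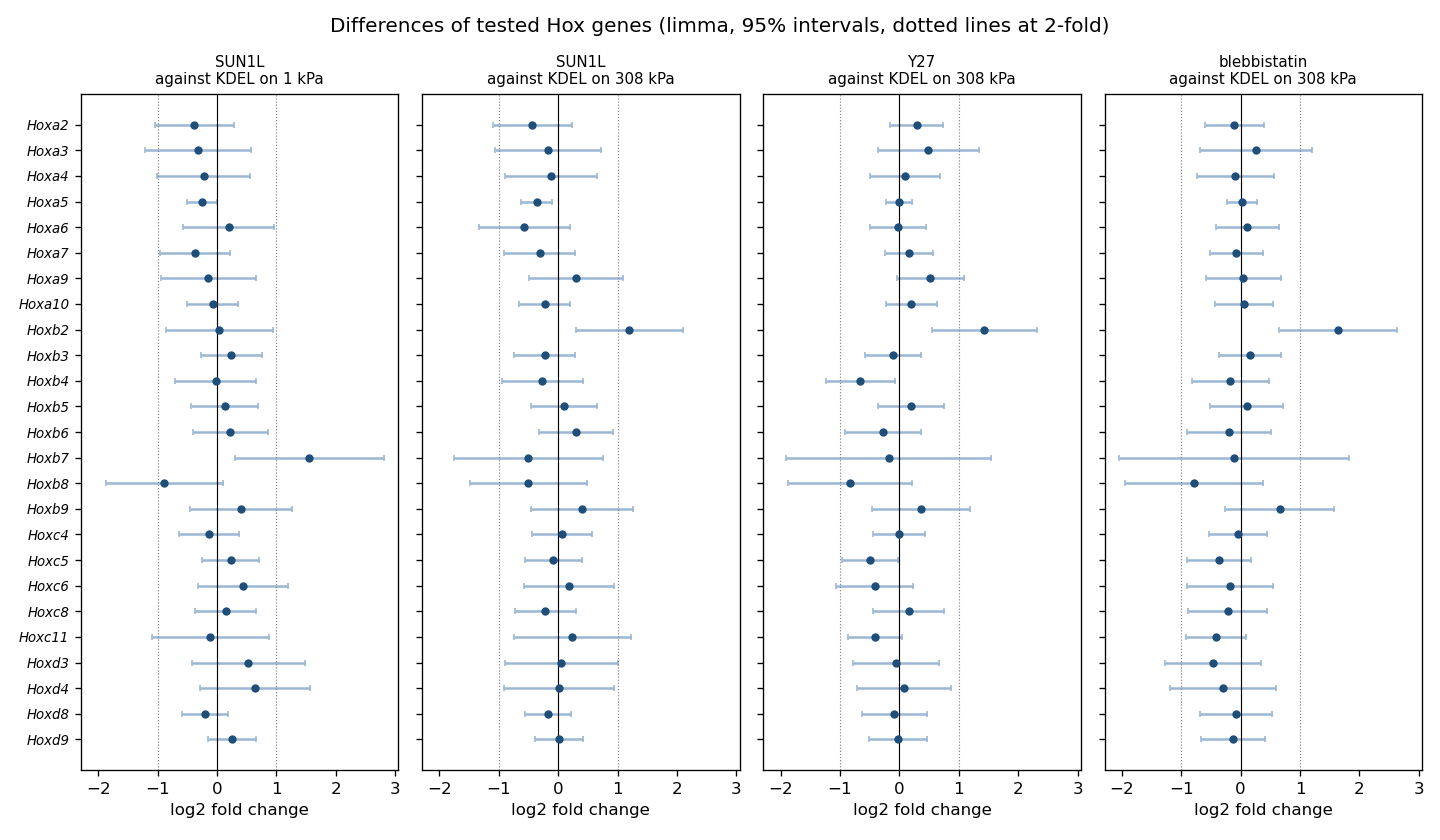
Log2 fold change (horizontal axis) of tested Hox genes in 4 comparisons, with the 95% interval from limma as bars and dotted lines at 2-fold. Most points lie near 0, the intervals are widest for Hoxb7 and Hoxb8, and Hoxb2 lies to the right in 3 of the 4 panels, which share the untreated KDEL libraries on 308 kPa.

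Libraries 3, 7 and 8, with the low G2/M level, come from SUN1L cells on 1 kPa, SUN1L cells on 308 kPa and KDEL cells on 308 kPa of the same run. In them 3 of 26 Hox genes (11.5%) lay above all other 15 libraries, where 8.8% of the genes tested did. Below all others lay 1 (3.85%), where 12.9% of the genes tested did. These counts do not set the Hox genes apart from other genes. Hoxc6 was 426, 470 and 414 in libraries 3, 7 and 8 and between 179 and 285 in the others. Hoxd3 was 204, 169 and 144, against 61.3 to 110, and Hoxd4 was 384, 274 and 285, against 112 to 200. Hoxa3 went the other way with 844, 750.2 and 704, against 1272 to 1974. Hoxd3 and Hoxd4 overlap on the chromosome, so they may share reads. These libraries were set apart by their own measured level of G2/M genes, which is no group of the design, so no test was made.

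**Figure D4:**
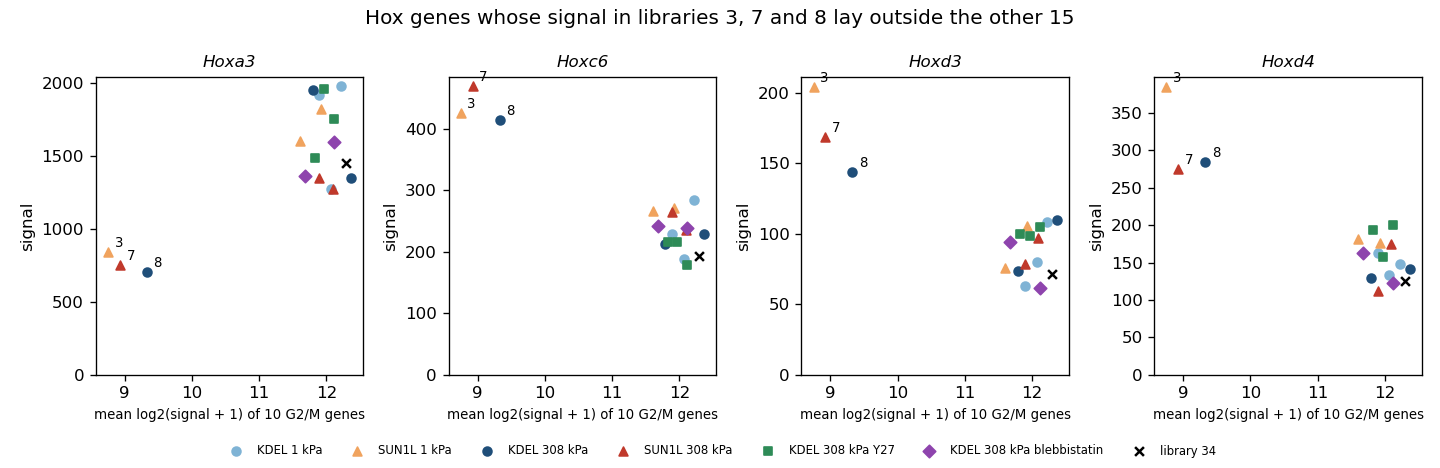
Signal of Hoxa3, Hoxc6, Hoxd3 and Hoxd4 (vertical axes, linear) against the mean log2(signal + 1) of 10 G2/M genes (horizontal axis), with 1 point per library and libraries 3, 7 and 8 numbered. The numbered libraries lie at 8.75 to 9.33 on the horizontal axis, below the other points for Hoxa3 and above them for Hoxc6, Hoxd3 and Hoxd4. The genes shown were chosen because the numbered libraries lay apart for them.

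The partners and regulators of Hox genes were described by lists. Of 9 Hox cofactors of the TALE class all were tested, led by Pbx2 (mean signal 1605), Pknox1 (1270.3) and Meis2 (1254), and 0 were called in any of the 8 comparisons. The Polycomb list, which holds the writers and readers of the silencing mark on Hox clusters, had 26 genes tested with 0 called, with Rbbp4 (15085), Rbbp7 (10197) and Cbx6 (7964) highest. Of the trithorax list 13 of 18 symbols were in the table, led by Psip1 (9323), Kmt2d (7406) and Kmt2a (4303), and 0 were called. The retinoic acid and caudal list, which includes known inducers of Hox genes, had 16 of 20 tested and 0 called, with Rarg (4247), Cyp26b1 (2862) and Crabp1 (2448) highest.

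Other positional transcription factors of mesenchyme were read in part. Of 40 on the list 21 were tested, 0 were called, and Prrx1 (mean signal 13185) and Tbx15 (1912) were among the highest. Of the genes flanking the clusters 19 of 24 were tested with 0 called, with Hnrnpa3 (28803), Cbx5 (14964) and Atp5g3 (8442) highest. Evx1, which borders the 5′ end of the Hoxa cluster, was listed at 1 in all 18 libraries and Evx2, which borders that of the Hoxd cluster, in 17, like the 13th paralogues beside them. None of 21 RNA genes within or beside the clusters was in the table. For SUN1L over both rigidities the median log2 fold change was -0.05 for the cofactors, -0.04 for Polycomb, 0.05 for trithorax, 0.07 for retinoic acid and caudal, -0.04 for the positional factors and -0.06 for the flanking genes, beside -0.02 for all genes.

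Library 34 carried the Hox pattern of the other 17 libraries, with 25 Hox genes above 1 and the same 22 among them. For these 22, its signal lay within the range of the untreated KDEL libraries on 308 kPa for 9, above it for 4 and below it for 9. It lay within the range of the Y27 libraries for 9 and within that of the blebbistatin libraries, of which there are only 2, for 5. The matching shares of all genes are not given here, so these counts do not set the Hox genes apart from other genes. It was the lowest of all 18 libraries for Hoxa5 (778, the others 832 to 1239), Hoxa9 (4.42, the others 15.1 to 38.9) and Hoxb8 (6.64, the others 9.74 to 54.1), and the highest for 0 of the 22. As the lowest of 18 it held 3 of these 22 genes, as did libraries 7, 8 and 31. Over the 16021 genes tested, library 34 was the lowest for 1155 and the highest for 1311. The Sun1 signal of library 34 was 3656, far below the SUN1L libraries. It was above the untreated KDEL libraries (2785 to 3496) and those with blebbistatin (3443 and 3212), and within those with Y27 (3534 to 3799). Its labels were not judged from this gene. The G2/M level of library 34 was 12.3, within the range of the remaining libraries other than 3, 7 and 8.

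**Figure D5:**
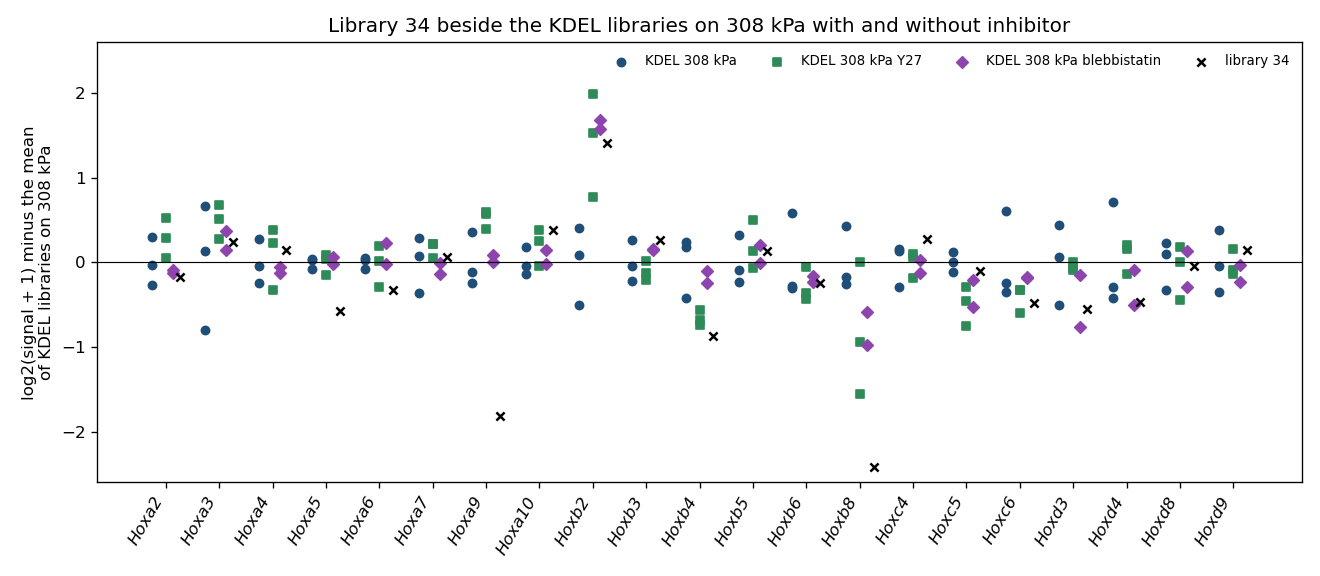
Log2(signal + 1) of Hox genes above 1 in all libraries, minus the mean of the 3 untreated KDEL libraries on 308 kPa (vertical axis), for these libraries, those with Y27 or blebbistatin and library 34 (crosses). The crosses of Hoxa9 and Hoxb8 lie lowest of all points of these genes, and the cross of Hoxb2 lies among the treated libraries.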

How the data were processed

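RNA-seq of polyadenylated RNA was made in 18 libraries with a kit that does not mark strand, with paired reads of 50 bases. Per the labels and methods, the authors checked reads with FastQC, mapped them with TopHat 2.0 and used SAMtools, filtered alignments by quality and duplicates in AvadisNGS, and deposited normalized signal values per gene (trimmed mean of M-values) whose lowest value is 1. The methods name mm9, but the Hox starts in the table lie a median of 69 bases from their GRCm38.p6 RefSeq starts, so its coordinates were read as GRCm38. Low values were within 0.05 of a whole multiple of the step in only 46.2 to 50.9% of cases, so reads were not recovered and no count test was run.

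Log2(signal + 1) was tested with limma 3.58.1 in R 4.3.3 (trend), on the 16021 genes above 1 in at least 3 libraries, with Benjamini-Hochberg adjustment. A call needed an adjusted p under 0.05 and a 2-fold change, and for the interaction a Bonferroni-corrected p under 0.05. Data were simulated for SUN1L against KDEL on 1 kPa with 16021 genes. At an adjusted p under 0.05, without the 2-fold limit, 56% of genes changed by a log2 of 1 were recovered. Of those changed by 2, 78% were, and 14 unchanged genes were called. Recovery under the full call rule was not measured, and genes of low mean signal were not among those changed. The Hox genes, lists and tests were chosen with earlier results of these data known. Hox genes were named with a fold change, SE and adjusted p when called or among the 3 smallest p of a comparison. Libraries of 1 run of numbers deviated together (r of 0.104 to 0.673 for each pair), which is a hint from the data, since the labels number no replicates. Library 34 entered no group. Some genes are not reported here.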

Additional observations from a re-analysis of the deposited data

Results flagged for a closer look

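Library 34 was in no comparison between groups, and 6 Hox genes had a signal in it above all 3 untreated KDEL libraries on 308 kPa. The share of all genes that did so is not given here. Hoxa10 was 229.6, against 160.0, 201 and 171, and Hoxc4 was 282.3, against 189, 259 and 256. Hoxb3 was 141.9, where the highest of those libraries had 141.7, so these were equal in practice. Hoxb2 was 8.847, against 1.62, 3.93 and 2.94. Hoxc11 was 2.212 and Hoxc8 2.632, each about 1 read pair in a library where 1 read pair was worth 2.21. None of the 22 Hox genes above 1 in all libraries was highest in library 34. Of these 22, 4 lay above all 3 untreated KDEL libraries on 308 kPa and 9 lay below them.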

How the results depend on the processing

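Called Hox genes numbered 0 in each of the 8 comparisons. They also numbered 0 under every alternative by limma, with 18 to 25 alternatives per comparison and 158 summed over the comparisons. These alternatives changed the filter, the pseudocount (8 or 0.1), the normalization, the variance trend, the weights, the threshold or the libraries. For rigidity, the interaction and the inhibitors 0% of all genes were called in the main fit, so 0 calls there do not set the Hox genes apart. Leaving out 1 library each gave 0 to 0 calls. At an unadjusted p under 0.05 the counts ranged over all alternatives from 0 to 4 for SUN1L on 1 kPa, 1 to 5 on 308 kPa, 1 to 8 over both, 0 to 3 and 0 to 4 for rigidity in KDEL and SUN1L cells, 0 to 2 for the interaction, 0 to 5 for Y27 and 0 to 2 for blebbistatin. The sets of Hox genes above 1 or above 10 stayed within 1.5 times their main number. With a replicate block on the runs of library numbers, 0 Hox genes were called in every comparison, and 8 in place of 2 had an unadjusted p under 0.05 for SUN1L over both rigidities. No named Hox gene changed direction. Without libraries 3, 7 and 8, a choice made after seeing the data, Hoxa5 over both rigidities was -0.25 (adjusted p = 0.532).

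Depth limits the low genes: at 1.70 to 2.48 signal units per read pair, Hoxb2, Hoxb7, Hoxb9, Hoxc8 and Hoxc11 rested on few read pairs, and a gene listed at 1 is not shown to be silent. Blebbistatin had 2 libraries.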
